A study of Saccharomyces cerevisiae with 10 samples.

Results

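Cell wall protein mRNAs are the 33 messages of budding yeast that encode GPI-anchored wall mannoproteins, GPI-anchored wall enzymes, PIR proteins, secreted glucanases and chitinase, SUN family proteins and other secreted mannoproteins. They were taken by name from the genome annotation and make up 33 of its 5911 mRNA genes. The yeast wall is a layer of beta-glucan and chitin to which heavily O-glycosylated mannoproteins are attached, either through a remnant of a GPI anchor or, for the PIR proteins, through a direct link to beta-1,3-glucan. Transglycosylases and glucanases cross-link, trim and reopen that layer as the cell grows and divides. Several wall mRNAs are known ligands of the RNA-binding proteins Ssd1, which acts on them in the cytoplasm, and Khd1, which binds repeats in coding sequence.

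The study mapped where proteins touch RNA with gPAR-CLIP, a global crosslinking assay in which cells take up 4-thiouracil (200 µM here), are irradiated at 365 nm, and all RNA bound to biotin-labelled protein is sequenced. The cells were wild-type BY4742, with the alleles his3-delta-1 and leu2-delta-0 as well as lys2-delta-0 and ura3-delta-0, grown in synthetic defined medium. The labels give the mating type as MATa, whereas BY4742 is known as a MATalpha strain. In log-phase polyA RNA SAG1, the agglutinin of alpha cells, had 18 clusters, and AGA2, an agglutinin subunit of a cells, had 0. After glucose starvation, after nitrogen starvation and in total RNA AGA2 had 2, 4 and 3, and SAG1 had 14, 14 and 21. The mating type was not tested. Each group had 2 replicates, and the deposited result is 1 list of crosslinked stretches, called clusters, per group. The lists used were polyA RNA after 2 h without glucose (33345 clusters), polyA RNA after 2 h without nitrogen (38936), total RNA in log phase (51574) and polyA RNA in log phase (61035).

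All 4 came from the light fraction, at the top of a sucrose gradient. Whether the bound mRNAs had been on polysomes was not tested. The remaining list, total RNA of the heavy fraction, held 115 clusters and 0 on the wall mRNAs, which allows a share of up to 2.61%. Because each list pools its replicates, no spread between replicates could be computed, and no test or p-value is given. The 95% intervals below cover counting error only and treat clusters as independent, which clusters of 1 mRNA are not. No unselected RNA was measured, so more mRNA and more protein per mRNA cannot be told apart at any result below. The 2 starvation comparisons and the comparison of total with polyA RNA all share the log-phase polyA list.

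The wall mRNAs carried 314 clusters in the glucose-starved list, 324 in the nitrogen-starved list, 742 in the total RNA list and 474 in the log-phase polyA list, counting the gene with 100 nt upstream of the start codon and 150 nt downstream of the stop codon. These were 0.942%, 0.832%, 1.44% and 0.777% of the lists, in the same order. All 33 mRNAs had at least 1 cluster in each polyA list, and 31 had one in the total RNA list. The median wall mRNA held 8, 9, 24 and 16 clusters in the 4 lists.

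**Figure D1:**
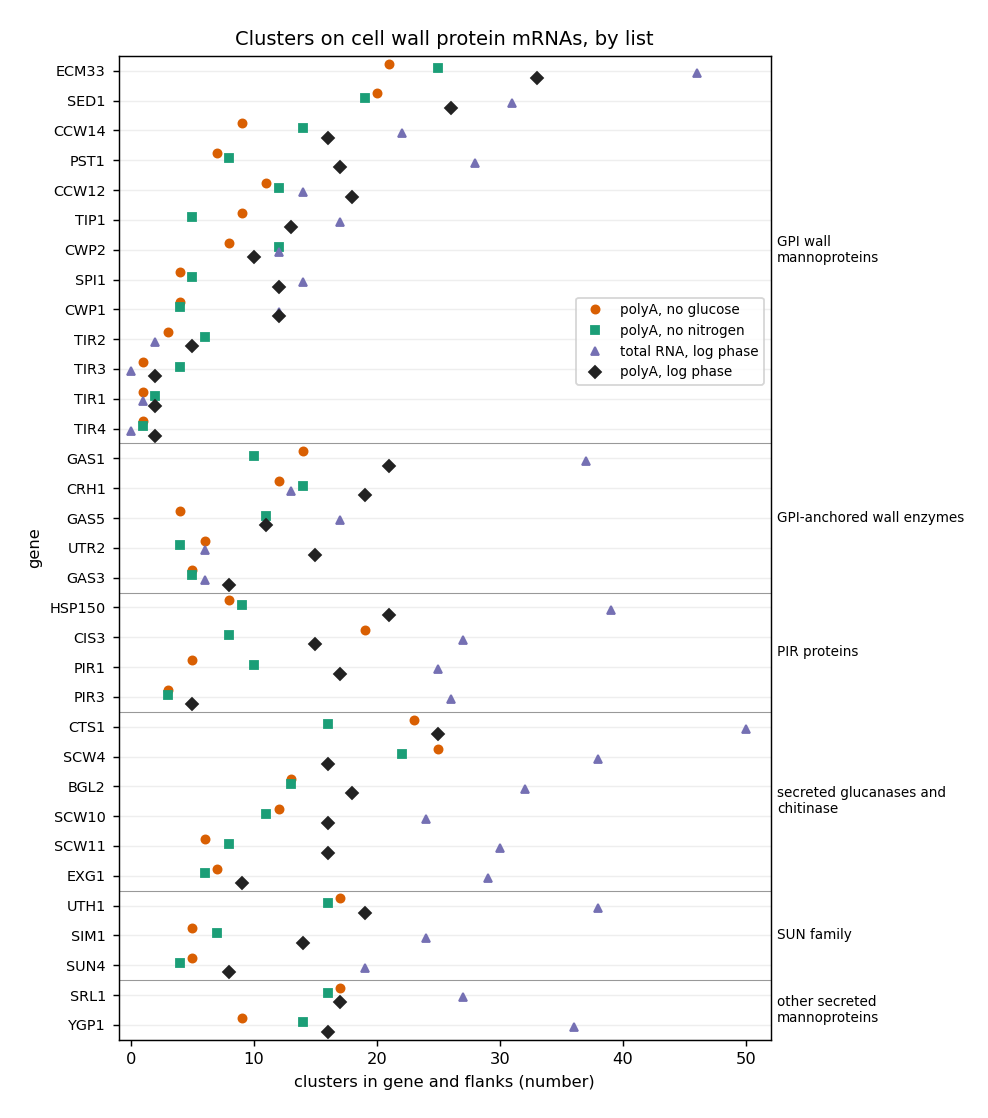
Number of clusters on each of the 33 wall protein mRNAs (x axis) in the 4 light-fraction lists (symbols), grouped by protein class (right). Total RNA gives the highest count for most mRNAs, up to 50 on CTS1, and the 4 TIR mRNAs lie at the left edge with 0 to 6 clusters in any list.

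Among the GPI wall mannoproteins the clusters were spread unevenly. ECM33, a GPI protein needed for wall integrity and bud growth, had 21 clusters after glucose starvation, 25 after nitrogen starvation, 46 in total RNA and 33 in log-phase polyA RNA. SED1, an abundant structural mannoprotein, had 20, 19, 31 and 26 in the same order of lists. The remaining well-covered messages of the class were CCW12 and CCW14, which encode abundant covalently bound glycoproteins, PST1, the paralog of ECM33, TIP1, named for its induction by temperature shock, CWP2, a major mannoprotein of the wall, SPI1, which protects against weak acids, and CWP1, found at birth scars, with 10 to 18 clusters each in log-phase polyA RNA. At the other end stood TIR1, TIR2, TIR3 and TIR4, mannoproteins known for induction by cold and by lack of oxygen. TIR1 had 1, 2, 1 and 2 clusters, and TIR4 had 1, 1, 0 and 2. TIR3 had 1, 4, 0 and 2, and TIR2 had 3, 6, 2 and 5. Of these 4 genes, TIR1 and TIR3 had no coding cluster in any list.

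The GPI-anchored enzymes were GAS1, GAS3 and GAS5, of the family that elongates beta-1,3-glucan, and CRH1 and UTR2, which join chitin to glucan. GAS1 had 14 clusters after glucose starvation, 10 after nitrogen starvation, 37 in total RNA and 21 in log-phase polyA RNA. UTR2 ran the other way between the log-phase lists, with 6 in total RNA and 15 in polyA RNA. GAS5 ranged from 4 to 17 clusters, CRH1 from 12 to 19 and GAS3 from 5 to 8.

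The PIR class consists of PIR1, PIR3, HSP150 and CIS3, whose proteins carry internal repeats. HSP150 had 8, 9, 39 and 21 clusters in the glucose-starved, nitrogen-starved, total RNA and log-phase polyA lists. PIR3 was sparse in all polyA lists, with 3, 3 and 5 clusters after glucose starvation, after nitrogen starvation and in log phase, yet had 26 in total RNA. Repeats limit what can be said here. Of the bases of PIR1 48.0% lie in 30-nt stretches that recur elsewhere in the genome, mostly within the gene itself or its paralog. The share was 37.0% for PIR3 and 28.8% for HSP150. Among the mannoproteins the same held for 30.4% of SED1, 28.1% of TIR1, 25.1% of TIR4 and 12.2% of TIR3, and how reads with several placements were treated is not stated in the labels.

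The secreted enzymes were CTS1, SCW4, SCW10, SCW11, BGL2 and EXG1. CTS1, the endochitinase that separates mother and daughter cells, had 23 clusters after glucose starvation, 16 after nitrogen starvation, 50 in total RNA and 25 in log-phase polyA RNA. SCW4, a soluble glucanase-like protein, had 25, 22, 38 and 16, so both starvation lists held more than the log-phase polyA list, although each starvation list is shorter. EXG1, the main exo-1,3-beta-glucanase, had 7, 6, 29 and 9. BGL2, an endo-glucanase, and SCW10 and SCW11, relatives of SCW4, had 16 to 18 clusters each in log-phase polyA RNA and 24 to 32 in total RNA.

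In the SUN family, whose members take part in septation and wall biogenesis, UTH1 had 17, 16, 38 and 19 clusters in the 4 lists, against 5, 4, 19 and 8 for SUN4 and 5, 7, 24 and 14 for SIM1. The other secreted mannoproteins were SRL1, with 17, 16, 27 and 17, and YGP1, a glycoprotein known for induction when nutrients run short, with 9, 14, 36 and 16. YGP1 thus held fewer clusters in both starvation lists than in the log-phase polyA list, which is the longest of the 4. Relative to list size it was not lower. Its cluster ratio to log phase was 1.03 (0.401 to 2.47) after glucose starvation and 1.37 (0.62 to 3.0) after nitrogen starvation.

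As a list, the wall mRNAs had clusters in both flanks and in the coding part. In the log-phase polyA list 13.7% of the wall clusters (10.9 to 17.1, Wilson 95%) were in the 5' flank, 62.2% in the coding part and 22.2% in the 3' flank. The corresponding shares over all mRNA genes were 7.93%, 66.1% and 24.5%. The 5' flank share was also above that of all mRNA genes after glucose starvation, 14.6% (11.2 to 19.0) against 8.46%, and after nitrogen starvation, 15.4% (11.9 to 19.8) against 7.97%. In total RNA the shares were close, 8.36% (6.57 to 10.6) for the wall mRNAs against 8.03% for all mRNA genes. A list of 33 other wall protein genes, used for comparison below, had 15.2% (10.5 to 21.5) after glucose starvation and 11.9% (8.12 to 17.1) after nitrogen starvation. It had 8.05% in total RNA and 8.61% (5.81 to 12.6) in log-phase polyA RNA. The raised share after glucose starvation was thus not particular to the 33 wall mRNAs. Genes with at least the wall mRNAs' median number of clusters had 5' flank shares of 8.34% after glucose starvation, 8.52% after nitrogen starvation, 4.87% (4.49 to 5.28) in total RNA and 7.54% in log-phase polyA RNA. Against those genes the wall share was thus higher in total RNA as well, though they held more clusters per gene than the wall mRNAs.

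**Figure D2:**
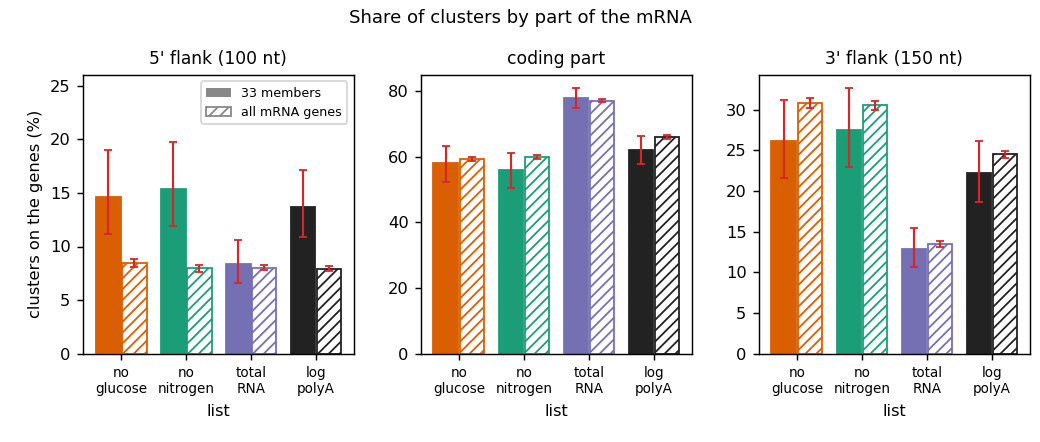
Share of clusters (y axis, %) that fell in the 5' flank, the coding part and the 3' flank in each list, for the 33 wall protein mRNAs (filled) and all mRNA genes (hatched), with Wilson 95% intervals. The filled 5' flank bars stand at 14.6%, 15.4% and 13.7% in the 3 polyA lists, above the hatched bars at 8.46%, 7.97% and 7.93%, and at 8.36% against 8.03% in total RNA.

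A 5' flank cluster was present on 24 of the 33 wall mRNAs after glucose starvation, where 24.2% of all mRNA genes had one. The count was 26 after nitrogen starvation (26.1% of all mRNA genes), 28 in total RNA (37.8%) and 29 in log-phase polyA RNA (36.6%). Wall mRNAs hold more clusters than most, and the shares for all genes that matched or passed their median cluster count were higher, 54.1%, 61.1%, 88.1% and 75.6% in the same order. Those genes are not matched to the wall mRNAs in cluster number. In total RNA the 311 such genes held 11254 clusters, against 742 on the 33 wall mRNAs. Against those genes the wall mRNAs' 24, 26, 28 and 29 are 72.7%, 78.8%, 84.8% and 87.9%, so in total RNA the wall mRNAs were not above them. A 3' flank cluster was present on 32, 33, 29 and 33 wall mRNAs, and on 65.5%, 70.9%, 51.1% and 77.2% of all mRNA genes. The wall counts are 97.0%, 100.0%, 87.9% and 100.0%, against 94.1%, 97.0%, 94.5% and 97.1% of the genes with at least their median cluster count, so in total RNA the wall mRNAs were below those genes.

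By length, clusters covered 16.5% of the wall 5' flanks after glucose starvation, 17.8% after nitrogen starvation, 28.0% in total RNA and 23.6% in log-phase polyA RNA. All mRNA genes had 3.85%, 4.01%, 8.53% and 5.91%, and the genes with at least the wall mRNAs' median cluster count had 10.8%, 12%, 27.3% and 16.5%. In total RNA the wall flanks and the flanks of these genes thus differed little, though these genes held more clusters per gene. Within the flank of the wall mRNAs coverage in total RNA was 13.2% in the bases 100 to 76 upstream of the start codon, 24.0% at 75 to 51, 42.4% at 50 to 26 and 32.4% in the last 25. The densest stretch over all mRNA genes was the last 25 bases, at 13.8%. In log-phase polyA RNA the last 50 bases were also the densest for the wall mRNAs, with 27.5% and 28.2%.

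How far the ends of the coding part differed from its middle varied by list. In the log-phase polyA list clusters covered 14.1% of the first 75 coding bases of the wall mRNAs, 11.7% of the middle and 16.2% of the last 75. All mRNA genes had 4.45%, 3.42% and 4.91% there. The wall values were 9.49%, 6.32% and 12.9% after glucose starvation and 10.5%, 6.21% and 6.95% after nitrogen starvation. In total RNA they were 26.7%, 25.3% and 31.0%. In the 18 GPI members the last 75 bases encode the signal for anchor attachment. Clusters covered 7.56% of those bases after glucose starvation, 4.74% after nitrogen starvation, 24.4% in total RNA and 15.6% in log-phase polyA RNA. The last 75 bases of the other 15 wall mRNAs, which carry no such signal, were covered over 19.4%, 9.6%, 38.9% and 16.8% in the same order. The middle of the coding part was less covered in the GPI members too. It was at 4.83%, 5.98%, 18.6% and 10.8%, against 7.86%, 6.45%, 32.3% and 12.5% in the others. Within the GPI members the last 75 bases were thus above the middle in every list but the nitrogen-starved one. Over all wall mRNAs T makes up 33.3% of the first, 29.6% of the middle and 32.9% of the last bases. A base can be crosslinked here only where T is incorporated as 4-thiouridine.

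The 6 wall mRNAs with most clusters over the 4 lists were ECM33 (125), CTS1 (114), SCW4 (101), SED1 (96), UTH1 (90) and GAS1 (82). SED1 had 65.6% of its coding part covered in total RNA, against 25.7% in log-phase polyA RNA. SCW4 had 45.4% covered in total RNA and 14.4% in log-phase polyA RNA.

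**Figure D3:**
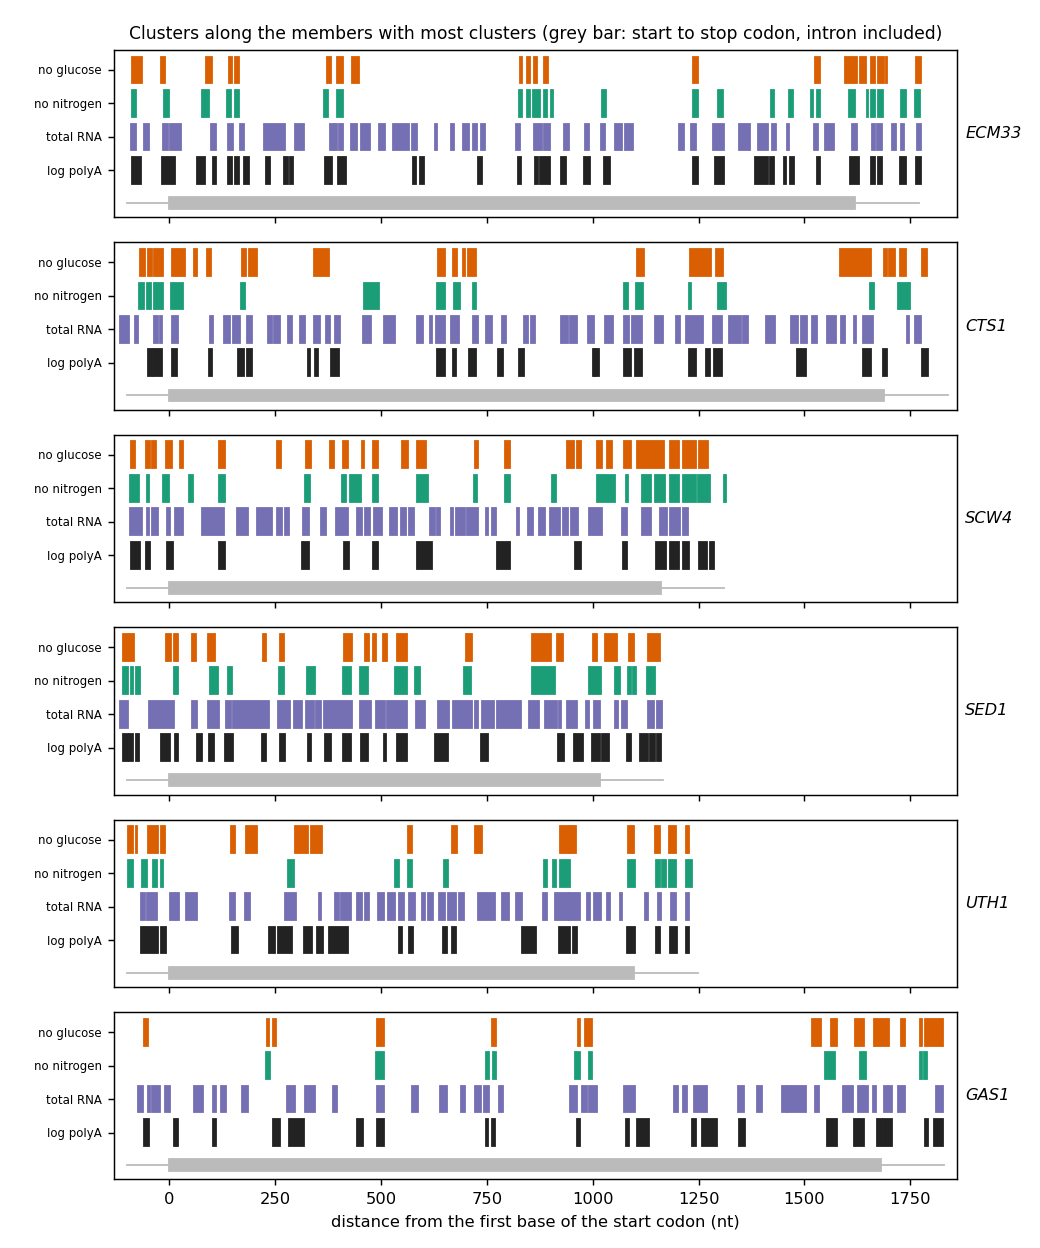
Clusters (coloured blocks) in each list along the 6 wall protein mRNAs with most clusters, by distance in nt from the first base of the start codon, with the span from start to stop codon as a grey bar. Some blocks recur at the same place in all 4 tracks, and the total RNA track is the fullest over the coding part, as on CTS1 with 44 coding clusters.

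ECM33 is the only one of the 33 genes whose annotated coding part is split by an intron. The intron held 4 clusters after glucose starvation, 4 after nitrogen starvation, 6 in total RNA and 9 in log-phase polyA RNA. Intron clusters were therefore present in polyA RNA of every condition.

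Many wall sites recurred between lists. Of the wall clusters in the glucose-starved list 75.5% (70.4 to 79.9) were found again in log-phase polyA RNA, by an overlap of 1 nt or more, and of those in the nitrogen-starved list 78.1% (73.3 to 82.2). Over all mRNA genes the shares were 74.3% and 73.3%. Only 42.9% (39.3 to 46.4) of the wall clusters in total RNA did so, against 30.9% over all mRNA genes. Log-phase polyA clusters covered 12.1% of the wall coding bases and 3.56% of all coding bases, and the part of this in the shares was not tested. The share of total RNA clusters found again differed by part of the mRNA. It was 62.9% for the 5' flank clusters of total RNA, 69.5% for the 3' flank clusters and 36.1% for the coding clusters.

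Of the 474 wall clusters in the log-phase polyA list, 144 were found in all 4 lists, which is 30.4% (26.4 to 34.7), against 15.6% over all mRNA genes. The share was 35.4% in the 5' flank, 25.8% in the coding part and 41.0% in the 3' flank, against 22.3%, 11.0% and 25.7% over all mRNA genes. Such a site was present on 30 of the 33 wall mRNAs (49.8% of all mRNA genes), and TIR1, TIR3 and TIR4 had none. In the 5' flank 17 wall mRNAs had one (10.5% of all mRNA genes) and in the 3' flank 24 (31.8%). Coverage moves with these shares and counts: in total RNA clusters covered 25.8% of the wall coding bases and 5.99% of all coding bases. The part of coverage in them was not tested, and genes with as many clusters were not set beside them. ECM33 had 14 such sites, SCW4 had 12 and CTS1 had 10.

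Some of these flank sites are given here, because clusters of all 4 lists covered them. Coordinates and sequence are those of assembly R64, sequences run 5' to 3' along the mRNA with T for U, and capitals mark the bases shared by the clusters of all 4 lists.
PIR1, 5' flank, chrXI:142833-142857, - strand: aCAAACTACAAAACTCCCCTAAtag
HSP150, 5' flank, chrX:120404-120417, + strand: AAACTCATATTCct
SRL1, 5' flank, chrXV:797653-797665, + strand: ctTTATCAACCAa
TIP1, 3' flank, chrII:372001-372025, - strand: AAATTTTTTCTTCATTAATATAATC
SCW4, 3' flank, chrVII:1048756-1048776, - strand: aACAAAAAAAATCTTGATTTA
GAS3, 3' flank, chrXIII:698439-698447, + strand: TTCTTTTAT
The PIR1 site lies 38 to 14 nt before the start codon and the HSP150 site 45 to 32 nt before it. The TIP1 site lies 78 to 102 nt after the stop codon, and all 25 of its bases were shared. The SCW4 site lies 22 to 42 nt after the stop codon, with 20 of 21 bases shared.

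Motifs of known RNA-binding proteins were searched on the mRNA strand, and a match is a description of the letters only. The Ssd1 pattern was taken as 2 adjoining units, each C, any base, C or T, then T. It is known from studies of Ssd1 targets that include wall mRNAs, so its presence here is not independent of that choice. In the 100 nt upstream of the start codon 20 of the 33 wall mRNAs held it (60.6%, 43.7 to 75.3), against 10.3% of all mRNA genes. Read on the opposite strand, it was in 2 wall flanks (6.06%) and 15.2% of all flanks. The wall flanks were 55.2% pyrimidine and 9.79% G, against 45.8% and 17.2% over all mRNA genes, which moves with the number of matches. The part of this composition in the count was not tested.

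In the last 40 nt before the start codon 13 wall mRNAs held the pattern (39.4%), against 2.98% of all mRNA genes. The 20 wall flanks held 31 matches, and an overlap of 1 nt or more was counted. A cluster overlapped 10 of them after glucose starvation, 9 after nitrogen starvation, 13 in total RNA and 14 in log-phase polyA RNA. A cluster of any of the lists overlapped 22 of the 31, on 13 mRNAs, and 300 of the 750 matches over all mRNA genes. Some overlaps were short: the only one on SCW4 was 1 nt and the only one on EXG1 was 2 nt. Clusters of the log-phase polyA list covered 23.6% of the wall 5' flanks and 5.91% of all 5' flanks. The part of coverage in the overlap was not tested. The 13 were SED1, SPI1, CCW14, CWP2, GAS5, HSP150, CIS3, SCW4, SCW10, EXG1, CTS1, UTH1 and SRL1. UTH1 had 4 matches, more than any other wall mRNA.

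Some of the clusters that covered 6 to 8 of the 8 bases of a match are shown, with the bases of the match in capitals.
SED1, log-phase polyA list, chrIV:600773-600793, + strand: aataCGTTCGCTctattaaga
CCW14, nitrogen-starved list, chrXII:903704-903714, + strand: aaCACTCGTTa
UTH1, total RNA list, chrXI:519474-519483, + strand: tCCTTCCTTt
UTH1, glucose-starved list, chrXI:519476-519499, + strand: CTTCCTTtaaacaaaaatttaccc
CIS3, log-phase polyA list, chrX:123016-123022, - strand: CCTTCTC
GAS5, log-phase polyA list, chrXV:268156-268162, + strand: tCACTCG
The SED1 cluster ends on the first base of the start codon, and the CCW14 cluster lies 20 to 10 nt before it. On UTH1 the same match was inside a cluster in total RNA and, but for its first base, after glucose starvation.

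The Khd1 pattern was taken as at least 6 successive triplets that begin with C. It was present in the coding part of 30 of the 33 wall mRNAs (90.9%, 76.4 to 96.9), against 24.0% of all mRNA genes, and YGP1, GAS3 and EXG1 lacked it. Of the 94 wall matches 92 had the C at the second base of the codon (97.9%), against 65.9% of the 2610 matches over all mRNA genes. Codons for serine and threonine, most of which have C at that place, made up 28.3% of wall codons and 14.8% of all codons, from 12.1% in EXG1 to 42.9% in SRL1.

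A cluster overlapped 22 of the 94 wall matches after glucose starvation (23.4%), 25 after nitrogen starvation (26.6%), 49 in total RNA (52.1%) and 35 in log-phase polyA RNA (37.2%). Over all mRNA genes the shares were 7.59%, 10.4%, 16.9% and 16.4%. Coverage moves with this: clusters covered 25.8% of the wall coding bases and 5.99% of all coding bases in total RNA, and its part in the overlap was not tested. The longest matches ran over 42 triplets in SCW11, 32 in SIM1 and 28 in UTH1. TIR3 had 8 matches and TIR1 had 7, and no cluster overlapped any of them in any list. Matches of up to 30 nt that a cluster overlapped in all 4 lists include those below, with the C that opens each triplet in capitals.
ECM33, chrII:394639-394656, + strand: CttCttCctCttCttCta
SED1, chrIV:601250-601267, + strand: CtaCcaCcaCtcCtcCtt
SCW4, chrVII:1049634-1049651, - strand: CtgCtgCtaCatCtaCtc
SRL1, chrXV:798031-798051, + strand: CtcCatCatCtaCtgCagCaa
The SED1 match begins at base 458 of its coding part and the SCW4 match at base 308.

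**Figure D4:**
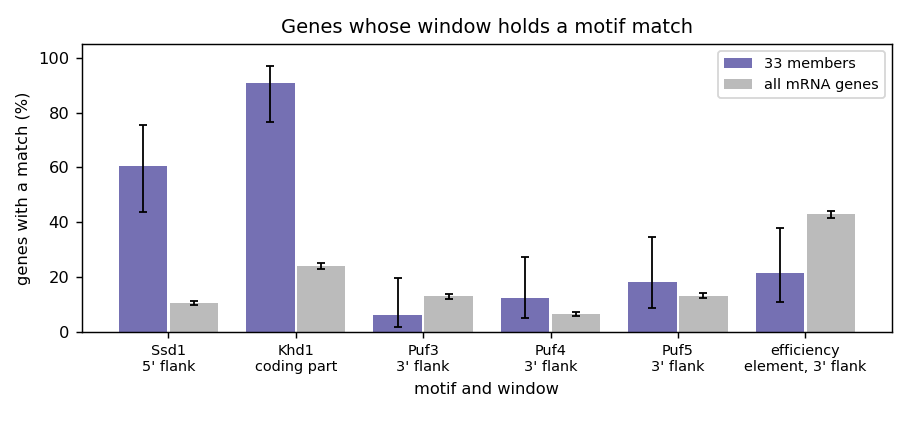
Share of genes (y axis, %) whose window holds a motif match, for the 33 wall protein mRNAs and all mRNA genes, with Wilson 95% intervals. The wall mRNAs stand at 60.6% against 10.3% for the Ssd1 pattern and at 90.9% against 24.0% for the Khd1 pattern, and their intervals reach across the grey bar for the Puf3, Puf4 and Puf5 patterns.

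In the 3' flank the patterns of the PUF family, proteins that bind 3' untranslated regions, had few matches. The Puf3 pattern TGTANATA was in 2 wall flanks (6.06%; all mRNA genes 12.8%), the Puf4 pattern TGTANANTA in 4 (12.1%; 6.33%) and the Puf5 pattern TGTANNNTA, which includes every Puf4 match, in 6 (18.2%; 13.1%). The efficiency element TATATA of polyadenylation was in 7 (21.2%; 42.9%). On ECM33 the Puf3 pattern lay inside clusters of the nitrogen-starved and log-phase polyA lists, and on PIR1 the Puf4 pattern lay inside a cluster of the total RNA list. Both are shown with the pattern in capitals.
ECM33, log-phase polyA list, chrII:394849-394862, + strand: ataTGTAGATAaaa
PIR1, total RNA list, chrXI:141726-141746, - strand: gcatattcTGTACATTAgtca

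Glucose starvation left the wall mRNAs, as a list, near the middle of all mRNAs. The measure was the log2 ratio of the covered length per list, with 20 nt added, minus its median over all genes with a cluster in either list, which was 0.26 before it was subtracted. The wall median was -0.03, and 14 of 33 were above 0, as 50.0% of all mRNA genes are. No wall mRNA was at least 2-fold higher, where 4.08% of all mRNA genes were, and 3 were at least 2-fold lower (6.17%). Without flanks 2 were higher (5.63% of all mRNA genes) and 6 lower (8.35%), and by cluster counts 2 were higher (5.74%) and 0 lower (8.70%). By cluster number the wall list was 1.21 times its log-phase level relative to list size (1.05 to 1.4, exact). All mRNA genes were at 1.07 (1.05 to 1.09). No all-gene median is subtracted from these ratios, so they and the wall median are on unlike baselines. With none subtracted, the wall median was positive too. With clusters under 10 nt left out the wall cluster ratio was 1.03.

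The 3 lower mRNAs were HSP150, PST1 and CWP1. HSP150 clusters covered 100 nt after glucose starvation and 395 nt in log phase, a log2 ratio of -1.25. PST1 had 69 nt and 263 nt (-1.13), and CWP1 had 56 nt and 232 nt (-1.19). Their cluster numbers after glucose starvation and in log phase, 8 and 21, 7 and 17, and 4 and 12, gave exact intervals that included 1.

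The highest were SCW4, CTS1 and BGL2, all secreted enzymes. SCW4 clusters covered 385 nt after glucose starvation and 281 nt in log phase, a log2 ratio of 0.97. CTS1 had 402 nt and 323 nt (0.84), and BGL2 had 238 nt and 223 nt (0.63). The exact interval of the cluster ratio was wholly above 1 for 2 wall mRNAs (0.856% of all mRNA genes): SCW4, at 2.86 (1.47 to 5.73), and CIS3, at 2.32 (1.12 to 4.90). It lay below 1 for 0 (0.464%). CIS3 had 19 clusters after glucose starvation and 15 in log phase, but a log2 ratio by length of 0.27, which was -0.12 when clusters under 10 nt were left out. The secreted glucanases and chitinase together were at 1.57 (1.17 to 2.12). By length 3 of these 6 were above 0 and 3 were not (EXG1, SCW11 and SCW10, the last close to 0), with a median log2 ratio of 0.31.

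After nitrogen starvation the wall median was -0.05 and 15 of 33 mRNAs were above 0, with 0.15 subtracted as the all-gene median. At least 2-fold lower were CWP1, UTR2 and HSP150, 3 of 33 where 4.69% of all mRNA genes were. CWP1 clusters covered 42 nt after nitrogen starvation and 232 nt in log phase (log2 ratio -1.58). UTR2 had 54 nt and 206 nt (-1.17), and HSP150 had 132 nt and 395 nt (-1.0). CWP1 and HSP150 were thus among the 3 lowest in both comparisons, which share the log-phase list.

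TIR1 alone passed 2-fold in the higher direction (4.86% of all mRNA genes did), on 2 clusters of 27 nt in all after nitrogen starvation and 2 clusters of 11 nt in log phase. Among wall mRNAs with at least 3 clusters in a list the highest were TIR3, with 35 nt and 20 nt (0.90), SCW4, with 340 nt and 281 nt (log2 ratio 0.70), and TIR2, with 62 nt and 56 nt (0.55). SCW4 was the 1 wall mRNA whose exact interval lay above 1, at 2.16 (1.08 to 4.39), where 1.14% of all mRNA genes did, and 0 lay below 1 (0.55%). The wall list as a whole was at 1.07 (0.927 to 1.24) by cluster number and all mRNA genes at 1.03 (1.01 to 1.04). With clusters under 10 nt left out the wall ratio was 0.915.

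Under both starvations the 3' flank stood higher against log phase than the coding part did. Wall clusters in the 3' flank were 1.43 times the log-phase level after glucose starvation (1.06 to 1.93) and 1.33 times after nitrogen starvation (0.990 to 1.78), while coding clusters were at 1.13 (0.934 to 1.36) and 0.962 (0.795 to 1.16). All mRNA genes had 1.35 and 1.28 in the 3' flank and 0.962 and 0.930 in the coding part.

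**Figure D5:**
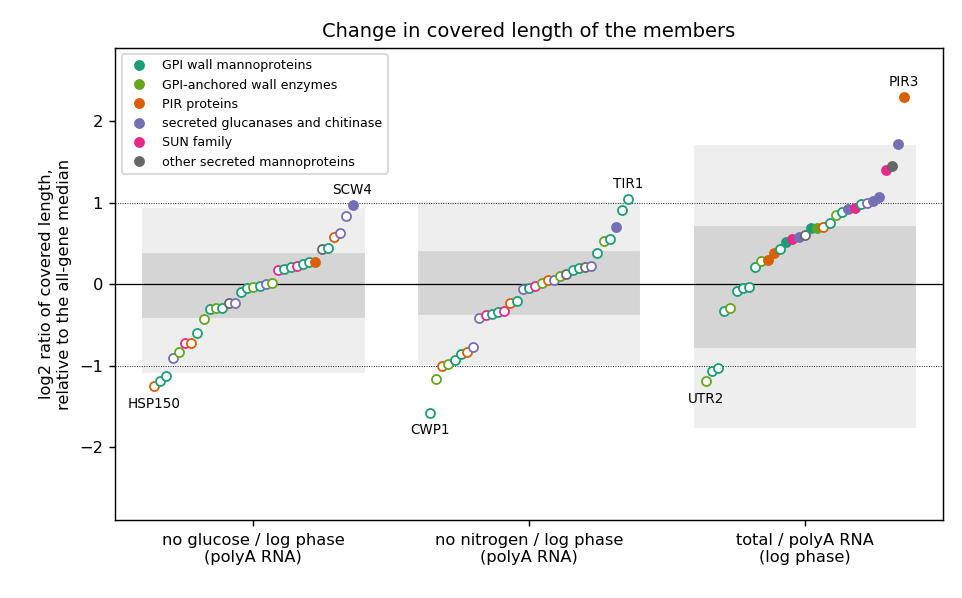
Log2 ratio of covered length, relative to the all-gene median, of each wall protein mRNA in 3 comparisons, in rank order within each, coloured by protein class. Filled points have an exact interval of the cluster ratio that excludes 1, grey boxes span the 25th to 75th (dark) and 5th to 95th (light) percentile of all mRNA genes, and dotted lines mark 2-fold. In the third comparison 25 of 33 points lie above 0, up to PIR3 at 2.29.

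Total RNA against polyA RNA, both in log phase, gave the widest differences. The wall median was 0.60 on the log2 scale and 25 of 33 were above the all-gene median, which was -0.16 before subtraction. At least 2-fold higher were 6 wall mRNAs (16.5% of all mRNA genes were), and at least 2-fold lower were 3 (19.1%), of which TIR3 and TIR4 rest on 0 clusters in total RNA and 2 in polyA RNA. The number higher was 12 without flanks (18.9% of all mRNA genes), 12 with clusters of either strand (16.8%) and 14 by cluster counts (18.5%). By cluster number the wall list was at 1.85 (1.65 to 2.08), against 1.23 (1.22 to 1.25) for all mRNA genes. The exact interval lay above 1 for 15 wall mRNAs (8.87%) and below 1 for 0 (3.51%). An interval excludes 1 more readily where clusters are many, as on wall mRNAs, and all mRNA genes lie at 1.23 rather than 1. The part of this in the 15 was not tested.

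PIR3 clusters covered 336 nt in total RNA and 51 nt in polyA RNA, a log2 ratio of 2.29 and a cluster ratio of 6.15 (2.33 to 20.5). EXG1 had 502 nt and 135 nt (1.72), with a cluster ratio of 3.81 (1.76 to 9.16). YGP1 had 596 nt and 200 nt (1.45), with 2.66 (1.44 to 5.14). SUN4, SCW4 and CTS1 were the others past 2-fold, with log2 ratios of 1.4, 1.07 and 1.02. In each of these 6 the coding part held more clusters in total RNA, as in PIR3, with 18 coding clusters in total RNA and 1 in polyA RNA, and EXG1, with 21 and 6.

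The other mRNAs with an interval above 1 were HSP150, CIS3, ECM33, PST1, GAS1, BGL2, SCW11, SIM1 and UTH1, with cluster ratios of 1.65 to 2.37. HSP150 and CIS3 had log2 ratios by length of 0.38 and 0.30, which were -0.07 and -0.16 when clusters under 10 nt were left out. UTR2 was the lowest, with 81 nt in total RNA and 206 nt in polyA RNA (log2 ratio -1.19). CCW12 had 151 nt and 190 nt (-0.33) and CRH1 had 180 nt and 219 nt (-0.29). UTR2 and CRH1, the pair of chitin transglycosylases, were thus both on the lower side, with exact intervals that included 1.

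By class, the cluster ratio of total to polyA RNA was 2.40 (1.88 to 3.08) for the secreted glucanases and chitinase, 2.39 (1.73 to 3.33) for the PIR proteins, 2.34 (1.59 to 3.49) for the SUN family and 2.26 (1.46 to 3.55) for the other secreted mannoproteins. The GPI wall mannoproteins were at 1.4 (1.14 to 1.73) and the GPI-anchored enzymes at 1.26 (0.908 to 1.76). All 15 mRNAs of the first 4 classes had a log2 ratio above 0, against 10 of the 18 GPI members. The GPI members not above 0 include TIR1, TIR2, TIR3 and TIR4, which rest on 1, 2, 0 and 0 clusters in total RNA. The others not above 0 were CCW12, CWP1, UTR2 and CRH1. The coding part of the wall mRNAs was at 2.32 (2.02 to 2.68), the 5' flank at 1.13 (0.784 to 1.62) and the 3' flank at 1.07 (0.803 to 1.43). All mRNA genes had 1.44, 1.25 and 0.678.

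Other gene lists give the scale of these values. In total against polyA RNA the median log2 ratio was 0.67 for 15 abundant glycolytic enzymes, 1.04 for 8 vacuolar proteases, 0.36 for 19 genes of glucan and chitin synthesis, -0.09 for 19 genes of the cell wall integrity pathway and -0.31 for 33 other wall protein genes. After glucose starvation the same lists had medians of 0.51, 0.24, 0.07, -0.34 and -0.02, and after nitrogen starvation 0.11, 0.17, -0.22, -0.28 and 0.20. The wall mRNAs, at 0.60, -0.03 and -0.05, lay between the extremes of these lists in each comparison. Of the synthesis genes, GSC2 and FKS1, the glucan synthase subunits, had 83 and 84 clusters in total RNA and 15 and 28 in polyA RNA.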

How the data were processed

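Per the submitters' processing notes the reads were aligned with Bowtie 0.12.7 to build R64. The deposited files are lists of cluster coordinates (chromosome, start, end, strand), 1 per group, that pool 2 replicates, and the score column per the deposited files is constant at 0 or missing, so peak heights were not used. The cluster caller and its thresholds are named in no label or header used here. Clusters were assigned by strand to genes of the R64 annotation from RefSeq (91 Ty genes left out), gene bodies before flanks and then by overlap, and flank clusters that touched another gene were left out (1 to 2 per list on the wall mRNAs). Every cluster held a T and none overlapped its neighbour within a list.

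Covered length was divided by the covered length of the whole list, and cluster ratios by list size. Intervals are Clopper-Pearson for ratios (conditional on the sum) and Wilson for shares, at 95%. Sequences are those of the RefSeq R64 genome. The code was tested on simulated data. Python 3.11.15, numpy 2.4.6, scipy 1.17.1 and matplotlib 3.10.9 were used.

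The genes, classes, comparison lists and motifs were chosen with earlier results of these data known. Genes named in each comparison are those with an exact interval that excludes 1 and the 3 highest and 3 lowest with at least 3 clusters in a list. The opposite-strand reading, the last 40 nt, the codon frame, the serine and threonine share and the genes with at least the median cluster count were added after the data were seen, as was the choice of which sites to show. WSC1 and LAP4 were matched by synonym.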

Additional observations from a re-analysis of the deposited data

How the results depend on the processing

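No paired analysis was possible because each list pools its replicates, and for the same reason leaving out a replicate and a replicate block were not run. Of 597 values under 13 alternatives, 544 moved by less than their interval, or for counts by no more than 1.5 times, 50 moved and 3, all log2 ratios of single genes, changed sign; causes were not tested except where stated. Without flanks, members at least 2-fold higher and lower numbered 2 and 6 after glucose starvation, 0 were higher after nitrogen starvation, and total against polyA RNA had 12 higher, 1 lower, a pooled cluster ratio of 2.26 and 36.6% of total RNA clusters found in the log-phase list. With wider flanks (200 nt before the start and 300 nt after the stop codon), 0 members were higher after nitrogen starvation and 1 lower in total RNA; coding shares were 48.7%, 47.3%, 71.3% and 53.1% and 3' flank shares 32.1%, 33.4%, 17.9% and 29.7% in the glucose-starved, nitrogen-starved, total RNA and log-phase polyA lists, since longer flanks take in more clusters. When a shared site had to overlap 50% of the cluster's width, 62.4%, 68.0% and 29.1% of glucose-starved, nitrogen-starved and total RNA clusters were found in the log-phase list. With clusters of either strand, 1 member was higher after glucose starvation and 12 in total RNA.

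With clusters of at least 10 nt only, pooled ratios were 1.03, 0.915 and 1.54 for glucose starvation, nitrogen starvation and total RNA (the second on the other side of 1 from its main value of 1.07), 83.7% and 85.2% of the 2 starvation lists' clusters were found in the log-phase list, and the log2 ratios of CIS3 after glucose starvation (-0.123), CIS3 in total RNA (-0.156) and HSP150 in total RNA (-0.0693) changed sign. With 5 nt added in place of 20, 2 members were higher after each starvation. With 50 nt added, nitrogen starvation had 0 higher and 1 lower, and total RNA 0 lower. By cluster counts in place of length, glucose starvation had 2 higher and 0 lower, nitrogen starvation 1 lower, and total RNA 14 higher. With at least 3 clusters required in a list, which changes the genes behind the median, glucose starvation had 1 higher, nitrogen starvation 0 higher and total RNA 1 lower. At 3-fold, glucose starvation had 0 lower, nitrogen starvation 0 higher and 0 lower, and total RNA 2 higher and 0 lower. With no median subtracted, glucose starvation had a median of 0.227, 2 higher and 0 lower, and nitrogen starvation 2 higher. Without the 7 members that share 30-nt stretches (26 left), nitrogen starvation had 0 higher and total RNA 1 lower. For some of these settings, the shares of all mRNA genes higher and lower in total RNA were 18.9% and 19.6% without flanks, 16.8% and 19.8% with either strand, 18.5% and 21.6% by cluster counts, and 6.05% and 7.17% at 3-fold. After glucose starvation they were 5.63% and 8.35% without flanks, 3.58% and 6.19% with either strand, 8.52% and 13.8% with 5 nt added, 5.74% and 8.70% by cluster counts, and 8.83% and 2.55% with no median subtracted. After nitrogen starvation they were 6.52% and 6.65% without flanks, 9.02% and 11.8% with 5 nt added, 5.93% and 8.11% by cluster counts, and 7.24% and 2.84% with no median subtracted. With wider flanks, 4.51% of all mRNA genes were higher after nitrogen starvation and 18.1% lower in total RNA. With 50 nt added, 1.28% were higher and 1.4% lower after nitrogen starvation, and 7.19% lower in total RNA. With at least 3 clusters required, 3.98% and 4.56% were higher after glucose and nitrogen starvation, and 21.0% lower in total RNA. At 3-fold, 0.998% were lower after glucose starvation, and 1.01% higher and 0.834% lower after nitrogen starvation.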
